A study of Rattus norvegicus with 6 samples.

Results

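RNase P and RNase MRP are a pair of related ribonucleoprotein enzymes. Their 10 components in the table were the RNA component of RNase MRP (RNase_MRP), the RNA component of RNase P (Rpph1), and the mRNAs of 8 protein subunits (Pop1, Pop4, Pop5, Pop7, Rpp14, Rpp25, Rpp30 and Rpp38). They were chosen by gene name from 32883 rows, and each name matched 1 row. The RNA came from GH4C1, an established rat pituitary line that makes growth hormone and prolactin. All cells were wild type and had been crosslinked with psoralen, a compound that links base-paired strands of nucleic acid. RNA was then pulled down with oligo pool A or oligo pool B, in 3 libraries each, to find RNAs in direct contact with the long noncoding RNA Neat1. The labels do not give the oligos of either pool or say whether a pool was a control, and both groups share the cell line, genotype and crosslink. Neither input RNA nor cells without the crosslink were analysed here, so a difference between pools is a difference in what was recovered, and the amount of an RNA in the cell and the efficiency of its recovery cannot be told apart.

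RNase P cuts the leader from transfer RNA precursors, and RNase MRP takes part in cutting the ribosomal RNA precursor in the nucleolus. Each enzyme has its own catalytic RNA, made by RNA polymerase III, and the enzymes share most of their protein subunits. Pop1 is the largest of these. Rpp25 and Pop7 form a heterodimer of the Alba fold that binds the RNA, Pop5, Rpp14 and Rpp30 belong to a further subcomplex, and Pop4 and Rpp38 bind the RNA. Counts of the noncoding RNAs and of the subunit mRNAs concern different classes of transcript, and neither measures assembled enzyme.

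The gene for each RNA component lies close to the start of a protein-coding gene. In mammals Rpph1 and Parp2 are transcribed away from each other from a shared control region, and the gene of the RNase MRP RNA lies in the same way beside Ccdc107. The bases before the start of each protein-coding neighbour are shown because reads of Rpph1 and Parp2 have to be told apart in the results below. The sequences are from RefSeq's GRCr8 assembly, and both run 5′ to 3′ on the strand of the protein-coding gene. They are chr15:26507409-26507658 (+) for Parp2 and chr5:62545100-62545349 (+) for Ccdc107, each 250 bases. Capitals mark a match to the octamer ATTTGCAT or its reverse complement ATGCAAAT, letters known as the binding sequence of POU factors such as Oct-1.
Parp2: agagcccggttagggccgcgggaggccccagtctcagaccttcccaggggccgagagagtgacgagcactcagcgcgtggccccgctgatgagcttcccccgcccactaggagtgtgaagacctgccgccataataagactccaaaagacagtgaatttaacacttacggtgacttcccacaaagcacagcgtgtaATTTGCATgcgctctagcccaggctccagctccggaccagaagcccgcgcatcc
Ccdc107: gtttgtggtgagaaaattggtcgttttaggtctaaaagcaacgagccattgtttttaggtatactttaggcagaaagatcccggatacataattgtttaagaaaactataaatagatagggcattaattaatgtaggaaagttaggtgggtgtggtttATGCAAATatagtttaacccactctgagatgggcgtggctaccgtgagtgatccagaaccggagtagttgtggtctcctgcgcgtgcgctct
The first 80 bases of the Parp2 sequence lie inside the Rpph1 gene as RefSeq draws it, and the whole Rpph1 gene lies inside the widest span RefSeq gives Parp2. The octamer stood at bases 197 to 204 of the Parp2 sequence and at bases 159 to 166 of the Ccdc107 sequence. It was found on either strand in 523 of 33469 such upstream sequences (1.56%). None was in the 250 bases before Pop5, Rpp14, Rpp25 or Rpp38, the 4 protein subunits with a sequence in the RefSeq table. A match describes these letters and does not show a bound factor. RefSeq lists Rmrp as a synonym of Rpph1 and classes that gene as an RNase MRP RNA, so its class there goes against the name Rpph1. The names used here are those of the count table, where Parp2 is the row after Rpph1 and Ccdc107 is the second row after RNase_MRP.

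The 6 libraries held between 1826390 and 3685899 counts, and levels below are CPM, the counts scaled to the library's total. A count of 0 allows up to 3 counts, or 0.814 to 1.64 CPM. The markers of the line, Gh1, Prl and Pou1f1, had counts in every library and together had 1011 to 1092 CPM with pool A and 703 to 903 CPM with pool B. Of the 3, Prl was higher with pool A (log2 fold change 0.83, edgeR adjusted p = 1.26e-05), Gh1 overlapped between the pools at 0.18 (adjusted p = 0.330), and Pou1f1 was at -0.23 (adjusted p = 0.245) with every pool B library above every pool A library. Of 15 markers of other pituitary lineages, folliculostellate cells, fibroblasts, endothelium and leukocytes, 13 were matched and 9 had a count. Their summed level was 24.1 to 43.0 CPM with pool A and 67.0 to 75.0 CPM with pool B. Tshb, Fshb, Aldh1a2 and Col3a1 were at 0 in every library, and most of the difference was in Lhb, with 9.10 to 16.0 CPM and 40.0 to 45.0 CPM. The part of these rows in the results below was not tested.

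Rpph1 was recovered mainly with pool B. With pool A it had 9229, 5913 and 15348 counts in replicates 1, 2 and 3, which were 2504, 2338 and 4815 CPM. With pool B it had 45660, 47017 and 43392 counts, which were 15563, 25743 and 16417 CPM. Every pool B library was above every pool A library, and pool A replicate 3 was the highest of its pool. Rpph1 took 0.234% (95% Wilson interval 0.228% to 0.240%) to 0.481% (0.474% to 0.489%) of the counts with pool A and 1.56% (1.54% to 1.57%) to 2.57% (2.55% to 2.60%) with pool B. These intervals cover counting error only, and libraries of a pool differed by more than their intervals.

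The log2 fold change of Rpph1, pool A over pool B, was -2.45 ± 0.21 (SE, n = 3 per pool), a 5.47-fold higher recovery with pool B, with an adjusted p of 3.12e-10 in edgeR's quasi-likelihood test over all genes. Differences were common in this comparison. Of 11582 genes tested, 40.6% passed the threshold of 0.05 on the adjusted p, with 18.6% higher under pool A and 22.0% higher under pool B. The median log2 fold change of all tested genes was 0.02, and 2.29% of them had a value below that of Rpph1. The adjusted p of Rpph1 was at most 2.88e-08 over the alternatives run, and its log2 fold change stayed between -2.78 and -2.20.

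RNase_MRP was recovered with both pools at much closer levels. With pool A it had 37489, 25940 and 48965 counts, which were 10171, 10259 and 15361 CPM. With pool B it had 26300, 18970 and 24178 counts, which were 8964, 10387 and 9147 CPM. The groups overlapped, because pool B replicate 2 lay above pool A replicates 1 and 2, and pool A replicate 3 stood above the other 5 libraries. Its log2 fold change was 0.46 ± 0.16 (SE), 1.38-fold in favour of pool A, with an edgeR adjusted p of 0.0195. The call was lost without pool A replicate 3 (log2 fold change 0.32, adjusted p 0.0853), without pool B replicate 1 (0.42, adjusted p 0.0666), without pool B replicate 3 (0.44, adjusted p 0.0586) and with total counts in place of TMM scaling (0.33, adjusted p 0.132). Its lowest adjusted p in any alternative was 3.74e-05 and its highest 0.132.

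**Figure D1:**
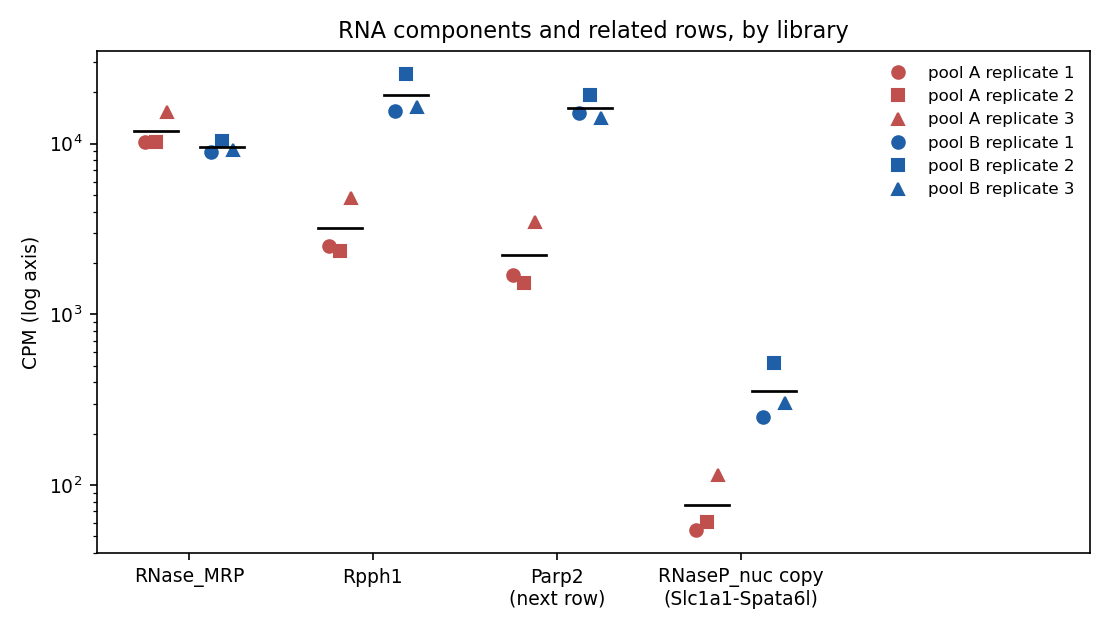
Recovery of the RNA components and of related rows in each library, in CPM on a log axis. Red symbols are pool A and blue symbols pool B, circles, squares and triangles are replicates 1, 2 and 3, and bars are means of 3 libraries; Rpph1, Parp2 and the RNaseP_nuc copy are higher in every pool B library, whereas the RNase_MRP groups overlap.

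The catalytic RNAs of the paired enzymes thus had fitted fold changes of opposite sign. Setting one count against the other within a library removes the scaling between libraries, and gene length cancels when that ratio is compared between pools. RNase_MRP had 4.06, 4.39 and 3.19 counts per count of Rpph1 with pool A and 0.576, 0.403 and 0.557 with pool B. The ratio was above 3 in all pool A libraries and below 1 in all pool B libraries. On the log2 scale it was 1.94 ± 0.24 (SD, n = 3) in pool A libraries and -0.98 ± 0.28 (SD, n = 3) in pool B libraries, a difference of 2.93 or 7.60-fold. An exact two-sided permutation test over libraries gave p = 0.1, the smallest that 3 against 3 libraries allow, and 0.1 after Benjamini-Hochberg adjustment over 5 such ratios. Within pools both RNAs had their highest CPM in pool A replicate 3 and in pool B replicate 2.

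**Figure D2:**
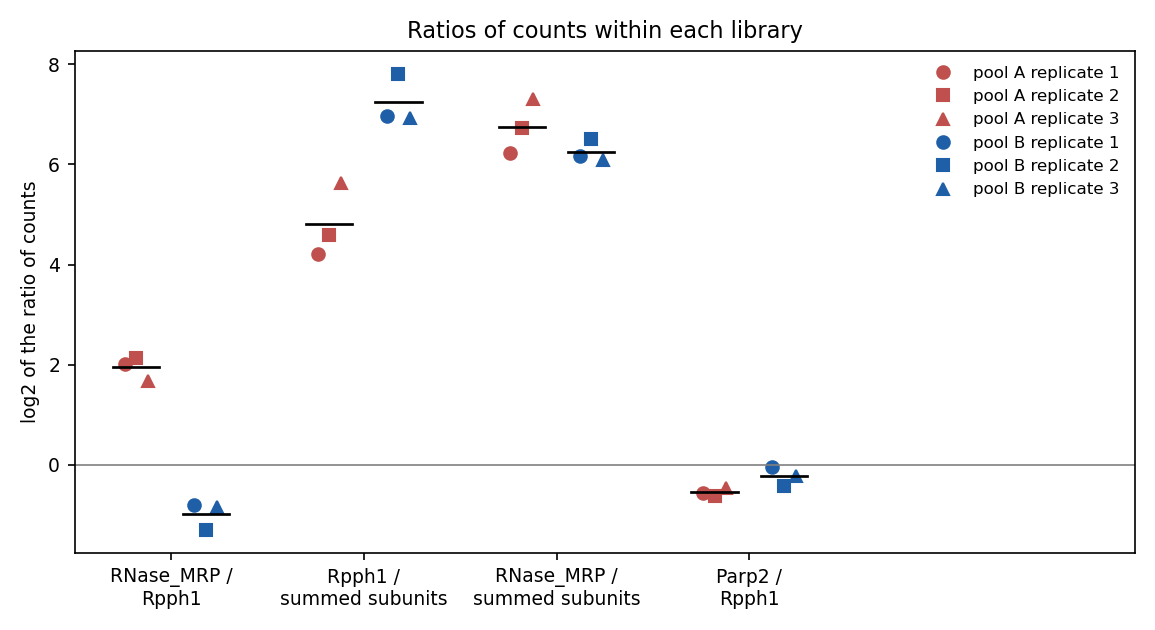
Ratios of counts within each library on the log2 scale, with red for pool A, blue for pool B, a symbol per replicate and bars for means of 3 libraries. The RNase_MRP to Rpph1 ratio lies between 1.67 and 2.13 with pool A and between -1.31 and -0.80 with pool B, and the ratio of Parp2 to Rpph1 lies between -0.62 and -0.048 across all 6 libraries.

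Parp2, which encodes a poly(ADP-ribose) polymerase of DNA repair and is the row after Rpph1, had fewer counts than Rpph1 in every library and was likewise higher in every pool B library. It had 6274, 3857 and 11063 counts with pool A and 44155, 35127 and 37233 with pool B. Its fold change came to -2.73 ± 0.21 SE in log2 (edgeR adjusted p = 3.00e-11). Parp2 had 65.2% to 72.1% of the count of Rpph1 with pool A and 74.7% to 96.7% with pool B, and its own highest CPM was also in pool A replicate 3 and pool B replicate 2. The Parp2 to Rpph1 ratio was 1.25-fold higher with pool B, with p = 0.1 in the exact two-sided permutation test (0.1 after adjustment). How reads that overlap both Rpph1 and Parp2 were assigned is not given in the sources used here. The libraries were made strand-specific, per the labels, but the strand setting of the counting is not stated, so the values of both rows are uncertain to that extent.

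The rows beside RNase_MRP held few counts. Arhgef39, the row after it, had 127, 63 and 105 counts with pool A and 98, 44 and 76 with pool B, between 0.214% and 0.373% of the count of RNase_MRP. The fitted log2 fold change came to 0.23 ± 0.25 SE (edgeR adjusted p = 0.501). Ccdc107, which was added after its values were seen, had 43, 22 and 42 counts with pool A and 43, 27 and 55 with pool B, a fold change of -0.44 ± 0.37 SE in log2 (edgeR adjusted p = 0.372). In CPM its groups did not overlap, at 8.70 to 13.2 with pool A and 14.7 to 20.8 with pool B. In RefSeq the spans of Arhgef39 and Ccdc107 overlap, and how reads of that pair were divided is not stated. Sit1, the row before RNase_MRP, had no count in any library.

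The table holds 36 further rows named RNaseP_nuc, the family name for nuclear RNase P RNA, annotated at other places in the genome. Of these, 22 had no count and 2 passed the filter on low counts. The copy listed between Slc1a1 and Spata6l (ENSRNOG00000053929) had 200, 153 and 366 counts with pool A and 737, 948 and 800 with pool B. All pool B libraries were above all pool A libraries, and pool A replicate 3 and pool B replicate 2 were again the highest of their pools. Its fold change came to -2.08 ± 0.22 SE in log2 (edgeR adjusted p = 1.34e-08). It received 2.17% to 2.59% of the count of Rpph1 with pool A and 1.61% to 2.02% with pool B. The sequences of these rows were not compared here and how reads that match several rows were counted is not stated, so whether this row shares reads with Rpph1 was not tested. The other tested copy (ENSRNOG00000053887) had 26, 15 and 10 counts with pool A and 23, 5 and 10 with pool B, a fold change of 0.29 ± 0.62 SE in log2 (edgeR adjusted p = 0.755). The 35 rows other than the Slc1a1 copy summed to 22 to 44 counts with pool A and 16 to 44 with pool B.

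Rows of other short noncoding RNAs made by RNA polymerase III passed the threshold in both directions. Of 24 tested rows named 7SK, an RNA that restrains transcription elongation, 11 were higher under pool A, where 18.6% of all tested genes were, and 5 under pool B, where 22.0% were. Of 12 tested rows named U6, the spliceosomal RNA, 4 were higher under pool A and 5 under pool B, both above those shares of all genes. The only tested 5S_rRNA row and both tested rows named for the signal recognition particle RNA did not pass the threshold. The same limit on read assignment holds for these rows, which share a family name.

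The mRNAs of the protein subunits were recovered at low levels with both pools. Their counts ranged from 0 to 259 in a library, and from 0 to 51 without Pop1. The 8 rows together had 497, 246 and 311 counts with pool A (135, 97.3 and 97.6 CPM) and 364, 209 and 357 with pool B (124, 114 and 135 CPM), so the groups overlapped. Of the 10 components 9 passed the filter, and of the 7 subunits that passed, 0 passed the threshold in edgeR's test, against 40.6% of all genes tested. The SE of those other than Pop1 was wide, 0.42 to 0.63 in log2, so the 0 does not show that the subunit mRNAs were unchanged. An unadjusted p under 0.05 was found for 2 of the 7, DESeq2 and limma-voom called 0, and a filter of 10 or more counts in each library, under which 5 of them were tested, called 2. The median log2 fold change of the 7 was 0.10, beside 0.02 for all tested genes, with values from -0.81 to 1.04. Over the alternatives that tested these same 7 rows, that median ranged from -0.042 with total counts alone to 0.33 without pool B replicate 1.

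Pop1 was the only subunit with over 100 counts in every library, at 259, 116 and 161 with pool A and 194, 133 and 221 with pool B. These were 70.3, 45.9 and 50.5 CPM against 66.1, 72.8 and 83.6 CPM, and pool A replicate 1 lay above pool B replicate 1. Its fold change came to -0.26 ± 0.20 SE in log2, with a 95% interval from -0.65 to 0.13 (edgeR adjusted p = 0.316). It was -0.48 without pool A replicate 1 and -0.14 without pool A replicate 3. Pop4 had 21, 10 and 16 counts against 19, 5 and 15, a fold change of 0.10 ± 0.61 SE in log2 (edgeR adjusted p = 0.920). Its sign turned with total counts alone and in the fits lacking replicate 1 of pool A or replicate 2 of pool B, and in CPM all pool A libraries lay within the range of pool B.

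Pop5 had 45, 10 and 30 counts with pool A and 51, 24 and 51 with pool B, or 12.2, 3.95 and 9.41 CPM against 17.4, 13.1 and 19.3 CPM. All pool B libraries were above all pool A libraries, and the fold change was -0.81 ± 0.42 SE in log2 (edgeR adjusted p = 0.133). It was -0.48 without pool A replicate 2 and -1.18 without pool A replicate 1. Pop7 had 42, 24 and 11 counts against 41, 13 and 36. Its groups overlapped, and its fold change of -0.37 ± 0.49 SE in log2 (edgeR adjusted p = 0.592) was 0.04 without pool A replicate 3. Gigyf1, the row before Pop7, had 441 to 564 CPM with pool A and 599 to 645 CPM with pool B, without overlap. Rnf10, the row before Pop5, had 141 to 226 CPM over the 6 libraries, with a fold change of -0.45 ± 0.14 SE in log2 (edgeR adjusted p = 0.00977).

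Rpp14, Rpp25, Rpp30 and Rpp38 each had every pool A library above every pool B library. Rpp14 had 45, 26 and 26 counts with pool A and 15, 13 and 12 with pool B, or 12.2, 10.3 and 8.16 CPM against 5.11, 7.12 and 4.54 CPM. The fitted log2 fold change came to 1.04 ± 0.50 SE (edgeR adjusted p = 0.103). Rpp25 had 50, 43 and 37 counts against 31, 17 and 10, or 13.6, 17.0 and 11.6 CPM against 10.6, 9.31 and 3.78 CPM, a fold change of 0.99 ± 0.45 SE in log2 (edgeR adjusted p = 0.0822) that was 0.64 without pool B replicate 3. Rpp14 and Rpp25 passed when only the 9272 genes that reached 10 counts in each library were tested (adjusted p 0.0258 and 0.0378), and in no other alternative. Among all tested genes the CPM ranges did not overlap for 49.1%, with 18.9% wholly above in pool A and 30.2% wholly above in pool B. Of the 7 tested subunits 3 were wholly above in pool A, a larger share than among all tested genes, and 1 wholly above in pool B, a smaller share. With 7 rows chosen with earlier results known, nothing is read from these shares.

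Rpp38 had 22, 12 and 19 counts against 9, 4 and 12, a fold change of 0.88 ± 0.63 SE in log2 (edgeR adjusted p = 0.292). It passed the filter mainly through pool A, where 3 libraries reached 3.59 CPM, against 1 with pool B. Rpp30 had 13, 5 and 11 counts with pool A and 4, 0 and 0 with pool B and did not pass the filter. With no filter its log2 fold change was 2.61 ± 1.29 (SE) and its edgeR adjusted p 0.142. The SE of the tested subunits other than Pop1 was 0.42 to 0.63 in log2, and none of these rows passed in the fit over all 11582 genes.

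**Figure D3:**
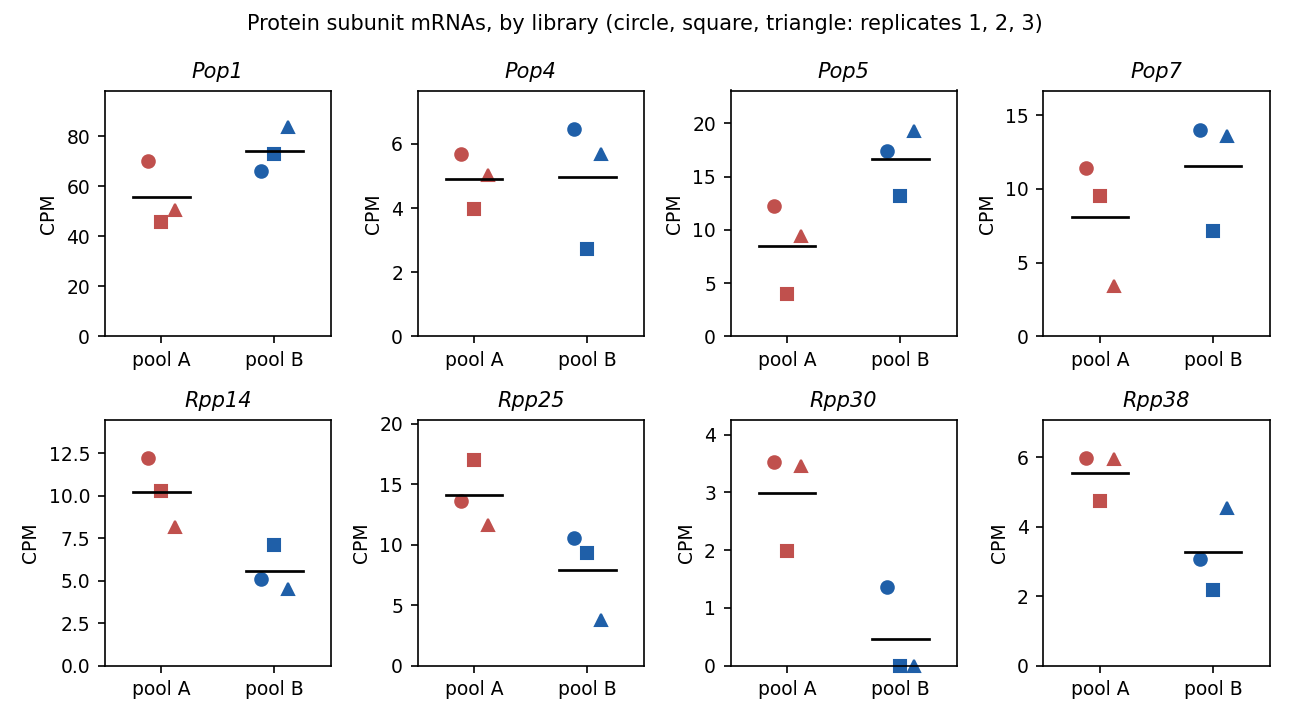
CPM of the 8 protein subunit mRNAs in each library, with a panel and a linear axis from 0 for each gene. Red is pool A, blue is pool B, circles, squares and triangles are replicates 1, 2 and 3, and bars are means; Rpp14, Rpp25, Rpp30 and Rpp38 do not overlap in favour of pool A, Pop5 does not overlap in favour of pool B, and none passed edgeR's test.

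Set against the subunit mRNAs within each library, the values of Rpph1 did not overlap between the pools and those of RNase_MRP did. Rpph1 had 18.6, 24.0 and 49.4 counts per summed count of the 8 subunits with pool A and 125, 225 and 122 with pool B. The mean log2 ratio was 4.81 ± 0.73 (SD, n = 3) in pool A libraries and 7.24 ± 0.50 (SD, n = 3) in pool B libraries, and the groups did not overlap. RNase_MRP had 75.4, 105 and 157 counts per summed subunit count with pool A and 72.3, 90.8 and 67.7 with pool B, with mean log2 ratios of 6.75 ± 0.53 and 6.25 ± 0.22 (SD, n = 3). Those groups overlapped, and the mean difference of 0.50 was 0.07 when the mean of the subunits' log2 CPM replaced their sum. It was 0.23 without pool A replicate 3 and 0.76 without pool A replicate 1. No p is given for these ratios, because the components were chosen with earlier results of these data known.

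Against Pop1 alone, the best counted subunit, a single row, the same ratios were taken. Rpph1 had 35.6, 51.0 and 95.3 counts per count of Pop1 with pool A and 235, 354 and 196 with pool B. Its log2 ratio was 5.80 ± 0.72 (SD, n = 3) in pool A libraries and 7.99 ± 0.43 (SD, n = 3) in pool B libraries, a 4.55-fold difference. RNase_MRP had 145, 224 and 304 counts per count of Pop1 with pool A and 136, 143 and 109 with pool B. There pool A replicate 1 lay just above pool B replicate 2. The log2 ratio of RNase_MRP to Pop1 was higher with pool A by 0.74, a 1.67-fold difference the other way. Both ratios to Pop1 were among the 5 put through the exact two-sided permutation test. As above, no p is given for them, because the components were chosen with earlier results known and Pop1 for its counts. The log2 fold change of Rpph1 was lower than that of each of the 7 tested subunits, by 1.64 for Pop5 to 3.49 for Rpp14. That of RNase_MRP lay within their range, below Rpp14, Rpp25 and Rpp38 and above Pop1, Pop4, Pop5 and Pop7.

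The remaining subunits of the human enzymes were looked up by name as a comparison. Rpp21, a protein of RNase P that RNase MRP lacks, had 145, 67 and 82 counts with pool A and 27, 35 and 13 with pool B, or 39.3, 26.5 and 25.7 CPM against 9.20, 19.2 and 4.92 CPM. All pool A libraries were above all pool B libraries. The fold change of 1.67 ± 0.37 SE in log2 (edgeR adjusted p = 0.000607) passed in every alternative run, with an adjusted p of at most 0.0114. Rpp21 and Rpph1, a protein mRNA and the RNA of RNase P, thus had fold changes of opposite sign. In RefSeq the span of Rpp21 overlaps Trim39, and how reads of that pair were divided is not stated. Rpp25l and Rpp40 had at most 20 and 18 counts in a library and were not tested. Nepro, a protein associated with the enzymes, had 73, 68 and 69 counts against 82, 31 and 53, a fold change of 0.20 ± 0.30 SE in log2 (edgeR adjusted p = 0.634).

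Mitochondria of mammals use a separate RNase P made of proteins alone, and neither of its mRNAs that could be tested passed the threshold. Trmt10c, its methyltransferase subunit, had 86, 65 and 50 counts with pool A and 83, 57 and 73 with pool B, a fold change of -0.27 ± 0.28 SE in log2 (edgeR adjusted p = 0.483). In CPM the groups of Trmt10c did not overlap, at 15.7 to 25.7 with pool A and 27.6 to 31.2 with pool B. Prorp, the nuclease subunit, is listed as RGD1305089 and had 30, 15 and 40 counts against 3, 16 and 38, a fold change of 0.29 ± 0.59 SE in log2 (edgeR adjusted p = 0.743). Hsd17b10, the dehydrogenase subunit, had 2 to 21 counts and was not tested.

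**Figure D4:**
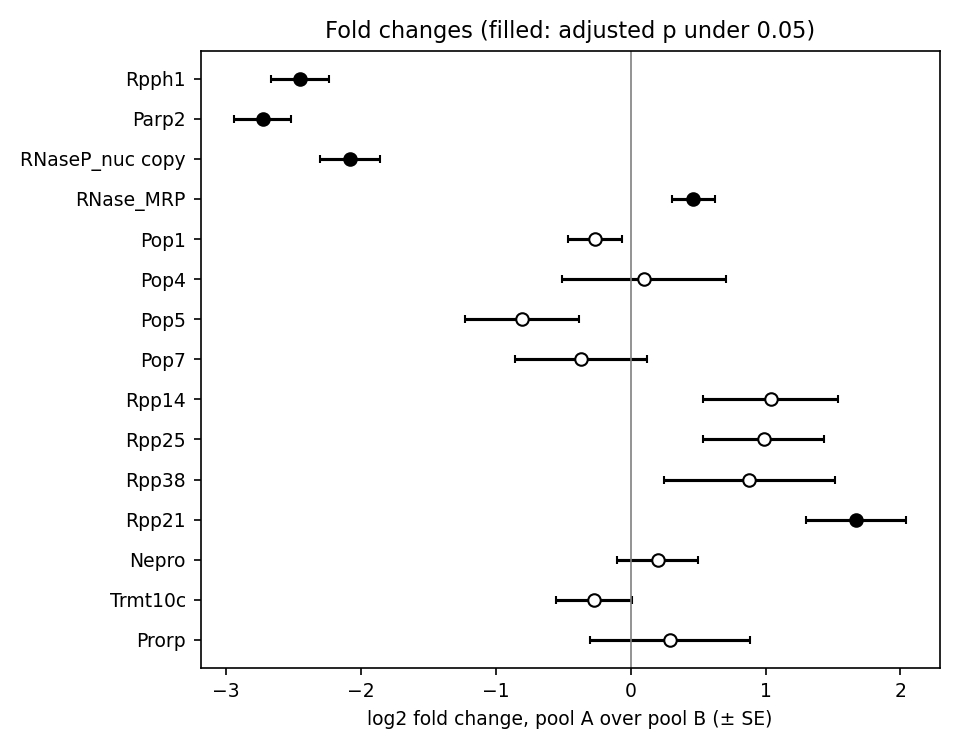
Log2 fold changes of pool A over pool B with standard errors from edgeR, for the tested components, related rows, other subunits and mitochondrial RNase P. Filled points passed at an adjusted p under 0.05; Rpph1, Parp2 and the RNaseP_nuc copy lie between -2.73 and -2.08, RNase_MRP at 0.46 and Rpp21 at 1.67, and the open points lie between -0.81 and 1.04.

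Other genes of the pathways that the enzymes serve passed the threshold in both directions. Of 17 genes of transfer RNA maturation, 16 were tested, 5 were higher under pool A and 4 under pool B, with a median log2 fold change of 0.24. Elac2, which trims the 3′ end after RNase P has cut the 5′ end, had a fold change of 1.12 ± 0.25 SE in log2 (edgeR adjusted p = 0.000635). Zbtb8os, a cofactor of the transfer RNA ligase, had 51.0 to 70.0 CPM with pool A and 7.67 to 17.7 CPM with pool B, a fold change of 2.37 ± 0.27 SE in log2 (edgeR adjusted p = 4.27e-08). Tsen15, of the splicing endonuclease, had one of 1.28. Ddx1, a helicase of the ligase complex, had 61.3 to 71.5 CPM with pool A and 166 to 224 CPM with pool B, a fold change of -1.43 ± 0.16 SE in log2 (edgeR adjusted p = 3.24e-08), and Trnt1, which adds the CCA end, had one of -1.13.

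Of 16 genes of ribosomal RNA precursor maturation, 15 were tested, 5 were higher under pool A and 3 under pool B, with a median log2 fold change of 0.35. Las1l, an endonuclease of the second internal spacer, had 250 to 363 CPM with pool A and 70.9 to 85.1 CPM with pool B, a fold change of 2.06 ± 0.16 SE in log2 (edgeR adjusted p = 1.79e-11). Pdcd11 and Pes1, factors of ribosome assembly, had log2 fold changes of 1.67 ± 0.14 and 1.20 ± 0.16 (SE). Rrp1, a nucleolar protein of ribosome assembly, went the other way, with 39.9 to 66.2 CPM with pool A and 172 to 196 CPM with pool B, a fold change of -1.74 ± 0.17 SE in log2 (edgeR adjusted p = 2.97e-09). The shares of genes called in each direction in both lists can be read against the 18.6% and 22.0% of all genes tested.

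Rows next to the components in the table were examined for counts that followed them. Of 20 such rows 12 were tested, and 2 differed past the threshold, Parp2 and Rnf10, both higher with pool B, a share below the 40.6% of all tested genes. Abhd6, the row after Rpp14, had 13.6, 21.0 and 12.5 CPM with pool A and 4.43, 13.1 and 11.0 CPM with pool B, a fold change of 0.90 ± 0.43 SE in log2 (edgeR adjusted p = 0.104). The other tested neighbours had adjusted p-values above 0.05. Rida, the row before Pop1, had a log2 fold change of -1.39 ± 0.77 (SE). Beside Pop4, Plekhf1 was at 0.87 ± 0.67 and AC120712.3 at -0.37 ± 0.42 (SE). Cabp1, after Pop5, was at 0.06 ± 0.17, and Gigyf1 at -0.12 ± 0.13 (SE). Pxk, before Rpp14, was at 0.13 ± 0.25, Scamp5, before Rpp25, at 0.15 ± 0.32, and Nmt2, after Rpp38, at 0.53 ± 0.27 (SE). The U6 row after Pop1 and AC128960.3, before Rpp38, had 4 and 3 counts over all libraries and were not tested.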

How the data were processed

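Counts per gene were deposited by the authors for 6 libraries as raw whole numbers, and STAR and featureCounts are named in the submitters' processing notes. Versions, genome build, annotation and strand setting are not given in the sources used here. The table also holds a mean of the counts per pool, deposited as other values by the authors, which was not used. Columns were matched to samples by title. Pool A was compared with pool B over all rows with edgeR 4.0.16 in R 4.3.3 (TMM factors, filterByExpr by pool, quasi-likelihood test, Benjamini-Hochberg adjustment, threshold 0.05). The standard error is the fold change divided by the root of its F statistic. The test was checked on simulated data with known changes. Alternatives used DESeq2 1.42.0, limma 3.58.1 (voom), other scalings and filters, a replicate block, and each library left out. The components and gene lists were chosen with earlier results of these data known. Named were all components, the rows beside them with any count, all other subunits, and genes of 2 pathway lists past the threshold with over 2-fold change and no overlap. The labels do not say whether libraries came from separate cultures, so p-values measure the spread between these libraries, which may be technical. Pairs of libraries within a pool had chi-square values of 5.86 to 20.7 per degree of freedom, so each was counted as a replicate. RefSeq's GRCr8 tables supplied names, neighbours and sequences.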

Additional observations from a re-analysis of the deposited data

How the results depend on the processing

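Refits were counted for the tested components, Rpp21, Nepro, Trmt10c, Prorp, Parp2 and the Slc1a1 copy of RNaseP_nuc. Of these 222 refits, 211 kept both their sign and their call, counting rows that had not passed and stayed so. The other neighbours and the pathway genes were not part of this count. The number of components higher with pool A was 1, and it was 0 with total counts alone and 3 with at least 10 counts in every library, where Rpp14 and Rpp25 joined RNase_MRP. Leaving out single libraries gave 0 to 1. The number higher with pool B was 1 in every alternative run, and it was Rpph1 each time. Total counts alone moved the median log2 fold change of all tested genes by -0.14, and upper-quartile factors moved it by 0.10. Changes of sign were seen in values that had not passed. Pop4 was -0.042 with total counts alone and lay between -0.17 and 0.33 over the fits that leave out a library, negative in those without pool A replicate 1 or pool B replicate 2. Over the same fits Pop7 lay between -0.71 and 0.039, positive only without pool A replicate 3, and Prorp, listed as RGD1305089, between -0.26 and 1.11, negative only without pool B replicate 1. The RNase_MRP ratio to the subunits was 0.066 with the mean of the subunits' log2 CPM. The cause of these changes was not tested. Under the replicate block, RNase_MRP and Rpph1 kept their calls, 2085 genes passed in favour of pool A and 2476 in favour of pool B, and the RNase_MRP to Rpph1 ratio, whose mean difference pairing cannot alter, had an exact p of 0.25, the smallest that 3 pairs allow. Deviations of same-numbered libraries correlated at 0.041, -0.019 and 0.020, so the numbers do not pair the libraries. The subunit rows other than Pop1 had at most 51 counts in a library.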
